A study of Homo sapiens with 6 samples.

Results

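Dense clusters of CTCF peaks are stretches where CTCF was found at several places within a few kilobases of each other. The cells were untreated neurons differentiated by way of neural progenitors from KOLF2.1J, which is a reference line of human induced pluripotent stem cells, and the samples share 1 genotype. Chromatin immunoprecipitation sequencing used 2 libraries for CTCF, 2 for H3K27ac and 2 inputs, and the values analysed here are the authors' single peak list for each antibody. The libraries come from 1 cell line, and a list that covers both libraries of an antibody gives no spread between them. The clusters were chosen by the positions in the CTCF list: rows that overlap were merged into intervals, intervals no more than 5 kb apart were linked into chains, and chains of 4 or more intervals on chromosomes 1 to 22 and X were kept. This gave 212 dense chains with 917 member intervals, which is 2.22% of the 41295 merged CTCF intervals. Another 29987 intervals were linked to no neighbour, 8306 stood in chains of 2 and 2085 in chains of 3.

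CTCF is a zinc finger protein that binds DNA in a direction set by its motif. Together with the cohesin ring it marks the ends of chromatin loops, and it also sits at many promoters. H3K27ac, the acetylation of histone H3 at lysine 27, is found at active promoters and enhancers. The study as a whole looked for regulatory elements of MAPT, the gene of the microtubule-associated protein tau. The cell label was checked against marker genes: all 14 of the neuron markers examined overlapped an H3K27ac row, against 3 of 7 liver and muscle markers and 2 of 5 pluripotency markers. All 9 neural progenitor markers, 5 of 6 astrocyte markers and 3 of 5 oligodendrocyte markers did so too, and the share over all 19974 protein-coding genes was 69.0%.

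The deposited lists hold no DNA sequence, so sequences are shown for the promoters that members overlap. RefSeq promoter windows of GRCh38.p14, 250 bases before to 50 after a listed transcription start, were used. The core of the CTCF motif was searched on both strands as CCANNAGNNGGC, where N is any base. Of the 135 windows that overlap a member, 6 held it, which is 4.44% (95% Wilson interval 2.05 to 9.36%). The share was 2.42% of all 34789 windows, 6.23% of the 5682 windows on other CTCF intervals and 1.66% of the 28972 windows on no CTCF interval. The intervals of members and of other CTCF promoters overlap, so no difference between them is shown at this number. The matches are printed below 5′ to 3′ in the direction of the motif, with the match in capitals and 9 bases on each side. They show which promoters of the dense chains carry the letters.

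BDNF, chr11:27701631-27701660, + strand: ggtgggagtCCACGAGAGGGCtccacggtg
LOC124900404, chr1:98054305-98054334, - strand: cgcgtccggCCAGCAGGGGGCtccggcgct
LINC02593, chr1:919781-919810, + strand: cacgtccgcCCAGCAGGTGGCagctgcatc
LINGO1-AS2, chr15:77659886-77659915, + strand: tagcctcctCCAGCAGAGGGCaccctggga
ATXN7L3-AS1, chr17:44198767-44198796, + strand: ggtggcacgCCAGGAGCGGGCactcccctt
TRIM7-AS2, chr5:181191747-181191776, - strand: aaaaggaaaCCAACAGCCGGCtccatagct

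In 4 of these promoters the match lay close to a member's summit, at 3 bp in BDNF, 5 bp in LINC02593, 14 bp in LINGO1-AS2 and 19 bp in LOC124900404. In ATXN7L3-AS1 and TRIM7-AS2 it lay 198 and 776 bp away. The BDNF match points against the gene and begins 30 bp before the listed start. Windows of 50 bp either side of a summit could be read in full for 46 members, and 4 of them (8.70%, 95% Wilson interval 3.43 to 20.3%) held the motif. The share was 9.29% for 1916 summits of other CTCF intervals and 0.474% for 1266 H3K27ac summits away from CTCF. A match is a run of letters, and its absence in a window says nothing about the protein. The promoters on members were rich in G and C, with a median of 67.7% and 27 CG pairs in 300 bases. Those on other CTCF intervals had 67.0% and 27, and those off CTCF 56.3% and 9.

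Most dense chains were small. There were 161 chains of 4 intervals, 37 of 5, 10 of 6 and 4 of 7. Their spans, from the first base of the first interval to the last base of the last, ran from 3.20 to 20.7 kb with a median of 9.17 kb. Together they took up 2.03 Mb. CTCF intervals covered a median of 26.1% of the span, so that the greater part of a chain lay between peaks. The 705 gaps inside chains had a median of 1860 bp, 28.7% of them were under 1 kb, and the smallest was 9 bp. Close to the limit of the rule, the widest gaps inside chains were 4994, 4993 and 4988 bp, and the narrowest gaps just outside were 5054, 5113 and 5141 bp.

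Peak strength varied widely within a chain. The signal value is the authors' value for each peak, on a scale that is not stated. Its median was 239 for the strongest member of a chain, 145 for the next, 77.3 for the third and 42.3 for the fourth. The strongest member exceeded the weakest by 5.61 times in the median chain, with a range of 1.40 to 31.6 times. A member in the top quartile of all merged intervals (above 184) together with a member in the bottom quartile (below 49.2) occurred in 106 of the 212 chains. Members as a whole were close to the rest of the list: their median signal value was 92.6, against 95.3 in intervals with no neighbour, 105 in chains of 2 and 109 in chains of 3. The strongest member stood at an end of the chain in 115 chains (54.2%), and ends make up 46.2% of member positions. These values come from the list that chose the members and are given as a description.

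**Figure D1:**
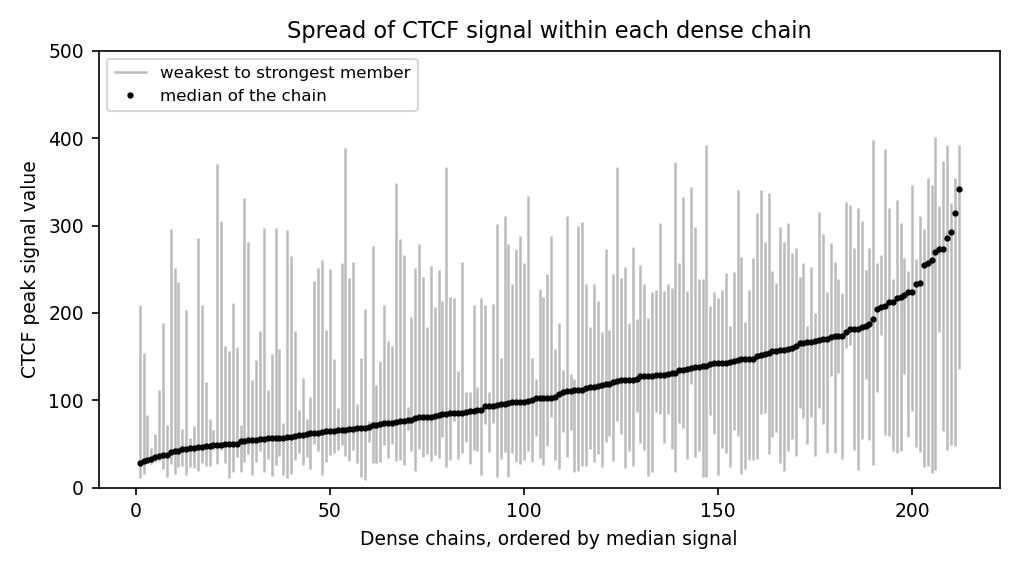
Signal values of CTCF intervals in each of the 212 dense chains, which are ordered along the x axis by their median; the y axis is the authors' peak signal value, a grey line runs from the weakest to the strongest member and a dot marks the median. The grey lines are long across the whole plot, and medians rise from 28.7 to 342.

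A width of exactly 800 bp recurs in the CTCF list and goes with low signal values. It belonged to the strongest row of 264 members (28.8%), whose median signal value was 35.6, and of 31.6% of the intervals with no neighbour. Leaving out the rows of this width, which belonged to 30.6% of all merged intervals, left 69 dense chains. Leaving out a like number of other rows would also shorten chains, and that was not run. The fall to 69 therefore does not show that the chains depend on this width in particular. More than 1 row had been merged into 66 members (7.20%), against 4.43% of intervals with no neighbour.

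Members overlapped H3K27ac more often than isolated CTCF intervals did. An H3K27ac row shared 1 bp or more with 391 of the 917 members, or 42.6% (39.5 to 45.9% as the 95% Wilson interval). The share over all merged CTCF intervals was 26.3%. It rose with chain size, from 23.2% (22.7 to 23.6%) in intervals with no neighbour to 32.9% (31.9 to 33.9%) in chains of 2 and 37.1% (35.0 to 39.2%) in chains of 3. The Wilson intervals cover counting error only and take members as independent, which they are not: 150 of the 391 shared an H3K27ac row with another member. The share was higher in members than in intervals with no neighbour on 21 of 23 chromosomes. Among the 18 chromosomes with at least 20 members it ranged from 21.95% on chromosome 15 to 77.1% on chromosome 16, against 19.7 to 32.0% for intervals with no neighbour. Chromosome 15 was the exception among these 18, with 25.3% in intervals with no neighbour. On chromosome 13 none of the 12 members overlapped H3K27ac.

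The distance to a transcription start divided this pattern. Members lay a median of 4.17 kb from the nearest listed start, against 22.8 kb for intervals with no neighbour, 11.1 kb in chains of 2 and 5.84 kb in chains of 3. Within 1 kb of a start lay 24.9% of members, 15.6% of intervals with no neighbour, 21.8% of those in chains of 2 and 24.5% of those in chains of 3. Within 1 kb of a start the share on H3K27ac was 73.0% in members (66.8 to 78.4%, n = 222) and 74.5% in intervals with no neighbour (73.2 to 75.7%, n = 4458), whose intervals overlap. From 1 to 10 kb it was 37.4% (32.7 to 42.3%, n = 380) against 17.0% (16.0 to 18.1%, n = 4967). Beyond 10 kb it was 26.6% (21.8 to 31.9%, n = 290) against 13.1% (12.6 to 13.6%, n = 19225). The Wilson intervals of members and isolated intervals were thus apart in both classes beyond 1 kb of a listed start, and overlapped within 1 kb. The list of starts may be incomplete, and a member near an unlisted start counts as far. The chains over CDKN1C and MMP17, for example, held no listed start. The part of unlisted starts in the far classes was not tested. Chromosome 8, for which no starts were used, is left out of these values, and 10 of its 25 members overlapped H3K27ac.

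**Figure D2:**
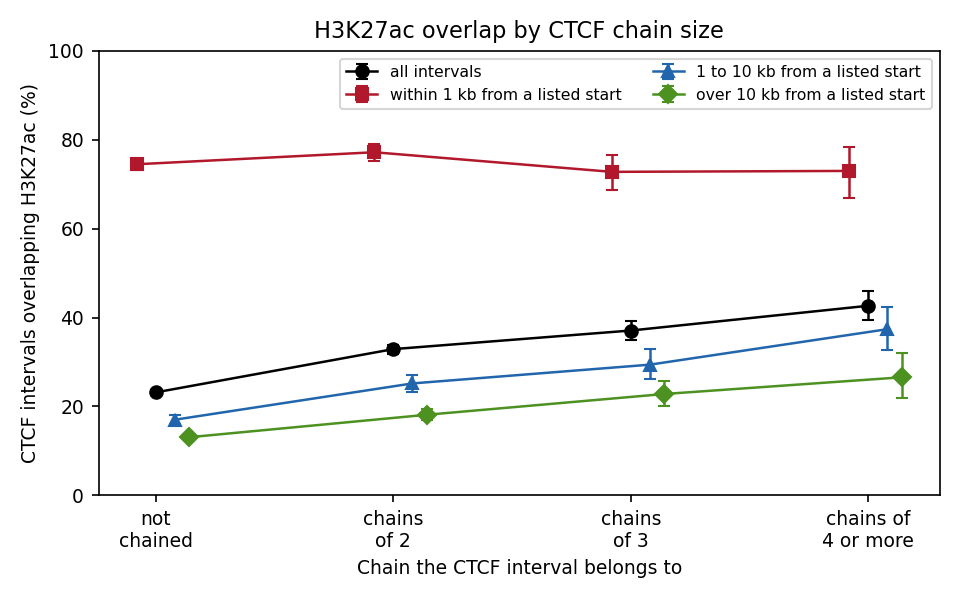
Percentage of CTCF intervals that overlap an H3K27ac row (y axis) by the chain the interval belongs to (x axis), for all intervals and for 3 classes of distance to a listed start; points are shares and bars are 95% Wilson intervals. The line for intervals within 1 kb of a start stays between 72.8 and 77.2%, whereas the other lines rise from left to right.

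The same order held in each quartile of CTCF signal. In the weakest quartile 51.4% of members and 28.6% of intervals with no neighbour overlapped H3K27ac, and in the strongest quartile 40.1% and 25.6%. The middle quartiles gave 41.2% and 20.2%, then 36.7% and 18.4%. Among intervals of the 800 bp width the shares were 48.5% and 26.9%, and among the others 40.3% and 21.4%. The median CTCF signal was 79.6 for the 391 members on H3K27ac and 104.9 for the 526 off it. Inner members overlapped H3K27ac in 241 of 493 cases (48.9%, 44.5 to 53.3%) and end members in 150 of 424 (35.4%, 30.98 to 40.04%). Inner members also lay within 1 kb of a start more often, at 28.7% against 20.4%, and the part of this in the difference was not tested. The summit itself fell inside the H3K27ac row for 239 of the 391 members that overlapped one.

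Taken by whole chains, 166 of 212 (78.3%, 95% Wilson interval 72.3 to 83.3%) held at least 1 H3K27ac row, 100 held 3 or more, and the highest number was 10. By size, H3K27ac was present in 118 of 161 chains of 4 intervals (73.3%), 36 of 37 chains of 5 (97.3%), 8 of 10 chains of 6 and all 4 chains of 7. In 139 chains some members overlapped H3K27ac and others did not, in 21 chains all did, and in 52 none did. In 6 of the last group, H3K27ac lay between the members. The chains held 2.73 H3K27ac rows per 10 kb of span, and 20.9% of their span was covered. The stretches of equal length on both sides of each chain held 0.943 rows per 10 kb, with 6.28% covered, and 170 of 424 (40.1%) held at least 1 row. Chains of 2 and 3 intervals held 2.67 rows per 10 kb, with 17.1% covered, and 2520 of 4848 (52.0%) held at least 1 row. Their median span was 3.47 kb, against 9.17 kb in dense chains, so these values are not set at like spans. A row that crosses an edge of a span counts whole. Among dense chains, rows per 10 kb were 3.60 in spans under 7 kb, 3.21 from 7 to 10 kb and 2.22 at 10 kb and over. A dense chain held more rows than the mean of its 2 flanks in 143 cases, fewer in 27 and as many in 42. By the rule no other CTCF interval lies within 5 kb of a chain, so the near part of each flank is without CTCF by construction. The part of this in the difference between chains and flanks was not tested. Short spans were not emptier: chains under 7 kb held a row in 41 of 50 cases, and those of 10 kb and over in 66 of 86.

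Gene starts separated the chains further. A listed start lay inside 126 of the 206 chains outside chromosome 8, and 115 of these (91.3%, 85.0 to 95.1%) held H3K27ac, with a median of 3 rows. Of the 80 chains with no listed start, 46 (57.5%, 46.6 to 67.7%) held it, with a median of 1 row. A chain whose start is missing from the list falls in this group. The median spans were close, at 9.09 and 9.22 kb.

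**Figure D3:**
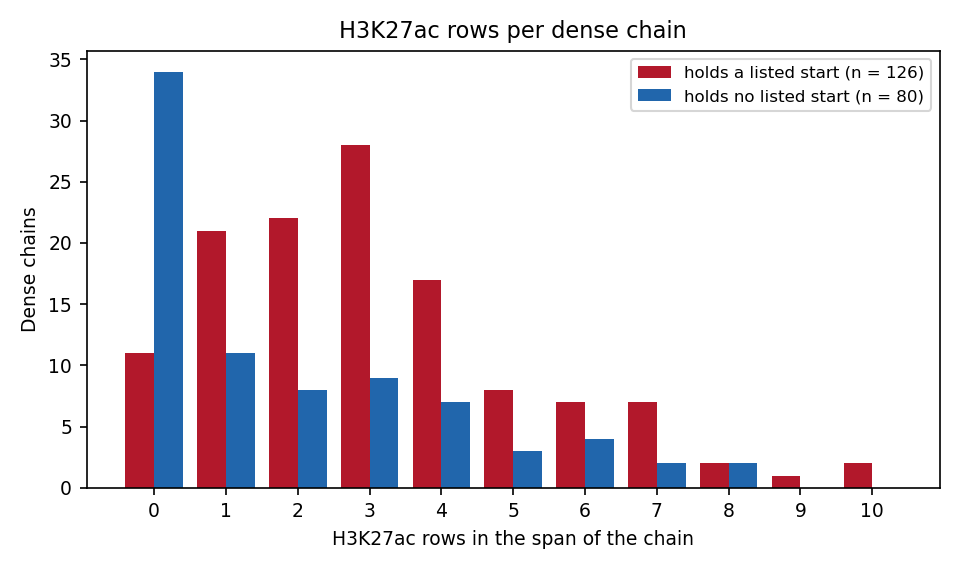
Number of dense chains (y axis) by the number of H3K27ac rows in their span (x axis), for chains with and without a listed transcription start; the 6 chains on chromosome 8 are left out. Chains without a listed start pile up at 0 rows (34 of 80), whereas 11 of 126 chains with a listed start are there.

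The 554 H3K27ac rows in dense chains were somewhat stronger than the rest of their list. Their median fold enrichment over background was 5.72, against 4.74 in the 78085 rows elsewhere, a ratio of 1.21. Peak width moved with this: 11.9% of the rows in chains were at least 2 kb wide, against 4.39% elsewhere, and in rows between the quartiles of width the ratio was 1.04. Compared with the 12363 rows that overlapped a CTCF interval outside dense chains, whose median was 8.27, the ratio was 0.692, and the direction turned. The sets are unlike here, since the 554 rows include some that lay between members and touched no CTCF interval. Within the chains, 391 rows overlapped a member and 163 lay between members. The former had a median fold enrichment of 6.92, also below 8.27, and a median width of 639 bp, the latter 4.42 and 291 bp.

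A protein-coding gene overlapped 182 of 212 chains (85.8%, 80.5 to 89.9%), and 202 chains overlapped a RefSeq gene of any kind. By single intervals, 63.4% of members lay in a protein-coding gene, against 61.8% of those in chains of 3, 58.8% in chains of 2, 54.5% with no neighbour and 55.9% of all. In all, 250 protein-coding genes overlapped a dense chain, which is 1.25% of 19974. Coding genes numbered 2 or more in 59 chains, and 41 chains lay wholly inside a single coding gene. Neighbouring pairs of dense chains lay within 50 kb of each other in 6 cases, within 100 kb in 8 and within 1000 kb in 36. The spacing that an even spread would give was not worked out. Members were most frequent among the intervals of chromosome 19 (37.8 per 1000) and chromosome 17 (37.6 per 1000), and least on X (3.32 per 1000, with 1 chain over AMMECR1 and RTL9).

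The chain over ZNF219 and TMEM253 on chromosome 14, from 21090263 to 21107270, combined 7 intervals with 10 H3K27ac rows. ZNF219 encodes a zinc finger transcription factor. The CTCF signal values were, in order, 95.9, 401, 154, 20.7, 270, 360 and 320, and all 7 intervals overlapped H3K27ac. The value of 401 was the highest of any member, and the weakest interval stood in the middle of the chain. The highest H3K27ac fold enrichment in any dense chain, 68.4, belonged to the row from 21103181 to 21104674, which the members with signal values of 270 and 360 overlapped.

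The other chains with many rows also lay at genes. The chain over ATP5F1D, a subunit of mitochondrial ATP synthase, and MIDN on chromosome 19 from 1240215 to 1253365 held 10 rows over 6 intervals, with a highest fold enrichment of 52.7. The chain over PRR7 and DBN1 on chromosome 5 from 177447470 to 177457987 held 9 rows over 6 intervals, with a highest fold enrichment of 38.2. DBN1 encodes drebrin, an actin-binding protein of dendritic spines. All 6 members overlapped H3K27ac in each of these chains. A chain over MIR124-3, which gives rise to the neuronal microRNA miR-124, lay on chromosome 20 from 63172510 to 63183757. It held 8 rows of at most 11.8 fold over 4 intervals with signal values of 32.4, 146, 125 and 225. Another 3 chains held 8 rows. That inside CCDC33 on chromosome 15 had 4 intervals and a highest fold enrichment of 6.86. Shorter in span, and outside the naming rule for that reason, were a chain over MAZ, PRRT2 and PAGR1 with 5 intervals and up to 35.5 fold, and a chain over GSE1 with 4 intervals and up to 11.85 fold, both on chromosome 16 and both with every member on H3K27ac.

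After ZNF219, the highest fold enrichments were 59.7 in a chain over PCM1 on chromosome 8 from 17912607 to 17923420 and 57.1 in a chain over BCL6 on chromosome 3 from 187738766 to 187748414. PCM1 encodes a protein of centriolar satellites. In the PCM1 chain the strong row stood at the far end, and 3 of 4 intervals, with signal values of 109, 64.5 and 109, were off H3K27ac. BCL6 encodes a transcriptional repressor. Its 6 intervals had signal values of 223, 247, 295, 133, 40.7 and 311, and the weakest of them lay on the strongest row.

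The other chains of 7 intervals showed fewer H3K27ac rows. A chain over IGFBP5, which encodes a binding protein for insulin-like growth factors, on chromosome 2 from 216682419 to 216699224 held 5 rows of at most 9.23 fold. The 3 inner members with signal values of 19.1, 54.5 and 49.0 overlapped them, and the 4 stronger members of 80.4 to 252 did not. A chain over NR6A1 and OLFML2A on chromosome 9 from 124764862 to 124777630 held 3 rows, the strongest at 19.4 fold, and signal values of 14.6 to 261. NR6A1 encodes an orphan nuclear receptor.

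A chain over ESPNP, a pseudogene of ESPN, lay on chromosome 1 from 16699940 to 16717423 with signal values of 49.1, 307, 107, 370, 29.5, 41.8 and 26.7. It held 2 H3K27ac rows of at most 5.02 fold, on 1 of the 7 members. ESPN, which encodes the actin-bundling protein espin, carried a dense chain of its own from 6437044 to 6449073, with signal values of 74.9, 245, 103, 108 and 47.4 and a single H3K27ac row of 9.10 fold. The copies are alike in sequence, and how reads that match both were placed is not given in the sources used here, so the peaks of these chains are uncertain.

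Chains without any H3K27ac numbered 46. The longest of them lay over variable segments of the T cell receptor gamma locus, TRGV1 to TRGV4, on chromosome 7 from 38354057 to 38374746. Its span of 20.7 kb was the longest of any dense chain. Its 6 signal values were 43.9, 62.9, 58.7, 97.7, 258 and 71.3. The segments are also repeated copies, with the same uncertainty. A chain over WNT10B and WNT1, which encode secreted Wnt ligands, on chromosome 12 from 48965454 to 48981191 held 6 intervals with signal values of 85.8, 79.6, 180, 46.1, 206 and 37.9. A chain inside ENPEP, which encodes a cell-surface aminopeptidase, on chromosome 4 held 5 intervals with signal values of 66.7 to 130.

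The 3 chains with the highest median CTCF signal held 1, 7 and 4 H3K27ac rows. The highest median signal value, 342, was found in a chain over LINC00620 on chromosome 3 from 13648183 to 13658270, with 392, 368, 135 and 315. It held a single weak H3K27ac row of 2.77 fold, and no member overlapped it. The chain over GLI1, a transcription factor of Hedgehog signalling, and INHBE on chromosome 12 from 57452850 to 57463083 followed with a median of 315 and held 7 rows. A chain over EFNA3, which encodes an ephrin ligand, on chromosome 1 from 155084615 to 155094747 had a median of 293 and 4 rows. At the other end, the lowest medians were 28.7 over NEFM, 30.2 over CHMP6 and 32.4 over ZNF775. In the ZNF775 chain all 4 members overlapped H3K27ac, with a highest fold enrichment of 36.4, and in the CHMP6 chain 1 of 4 did.

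**Figure D4:**
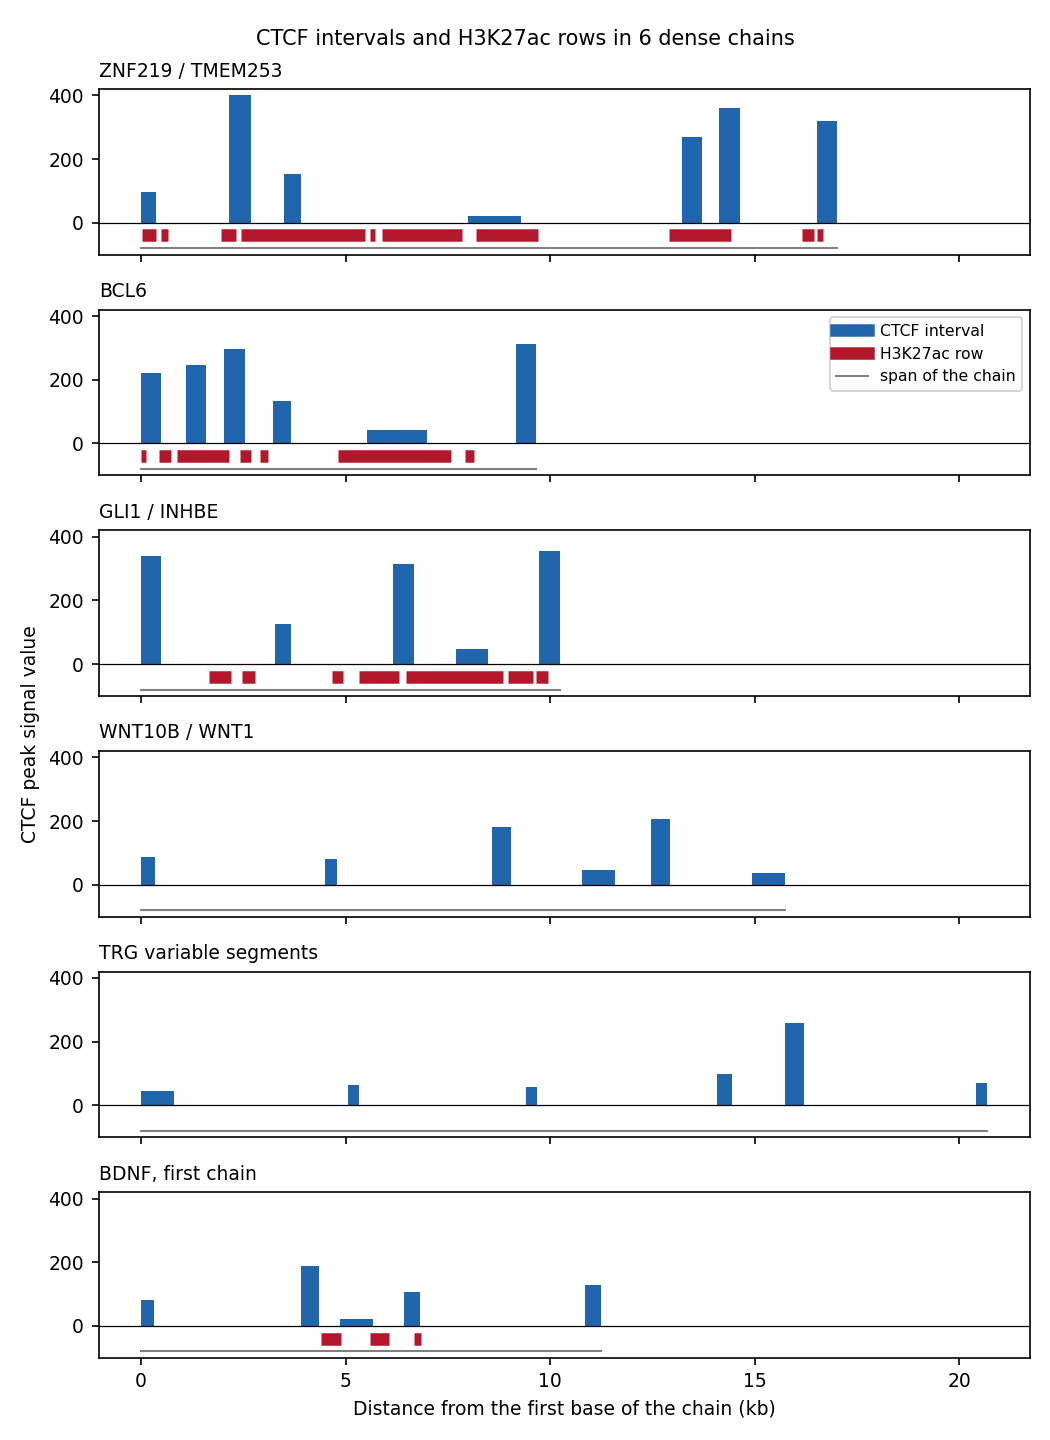
CTCF intervals (blue bars, y axis peak signal value) and H3K27ac rows (red, their height carries no value) in 6 dense chains, against distance in kb from the first base of the chain; a grey line marks the span. The ZNF219 chain has H3K27ac along much of its length, and the WNT10B and TRG chains have none.

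NEFM was the only gene among the 14 neuron markers to overlap a dense chain. It encodes the medium neurofilament subunit of the axonal cytoskeleton. The chain lay on chromosome 8 from 24912458 to 24916534, and with 4.08 kb it was compact, CTCF intervals taking up 70.2% of it. Its signal values were 10.7, 28.95, 209 and 28.4, the 3 low ones all from rows of 800 bp. The 3 members of lower coordinates overlapped H3K27ac rows with fold enrichments of 14.4 and 11.4. No progenitor, astrocyte, oligodendrocyte, pluripotency, liver or muscle marker overlapped a dense chain, out of 9, 6, 5, 5 and 7 genes, the last number counting liver and muscle together.

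The gene families and pathway lists overlapped dense chains in numbers too small to set apart from the 1.25% of all protein-coding genes. None of the 53 clustered protocadherins, whose promoter choice depends on CTCF, overlapped a chain, and 44 of them (83.0%) overlapped a CTCF interval, against 55.6% of all protein-coding genes. The 53 genes stand in clusters and are not separate observations, since 1 CTCF interval counts for every gene whose span holds it. Gene length was not matched in this comparison. A count of 0 of 53 allows a share of up to 6.76% (95% Wilson interval, which takes these clustered genes as independent). The count was 0 of 74 histone genes and 0 of 12 CTCF and cohesin genes. It was 7 of 517 zinc finger genes (1.35%), close to the 1.25% of all protein-coding genes. Those were ZNF219, ZNF775, ZNF503, ZNF385A, ZNF319, ZNF385C and ZNF114. ZNF503, a regulator of striatal development, had a chain of 4 intervals with 5 H3K27ac rows of up to 32.8 fold. In the ZNF385A chain no H3K27ac row was listed, in the ZNF319 chain 2, in the ZNF385C chain 7 and in the ZNF114 chain 1.

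Of 40 HOX genes, HOXD13 overlapped a dense chain. It is the last gene of the HOXD cluster and patterns the distal limb. The chain lay on chromosome 2 from 176086187 to 176098005, with signal values of 164, 284, 88.4 and 347. It held no H3K27ac. Of the 40 HOX genes 1 overlapped an H3K27ac row (2.50%), against 69.0% of all protein-coding genes. Of 22 imprinted genes, CDKN1C, which encodes a growth-restraining inhibitor of cyclin-dependent kinases, overlapped a chain on chromosome 11 from 2884890 to 2892503. Its signal values were 122, 60.9, 388 and 296, and 3 of the 4 members overlapped H3K27ac rows of 6.13, 14.4 and 7.86 fold. The strongest member was the one without H3K27ac. The list of 22 does not hold INS-IGF2, RTL1 or MEG8. Dense chains lay inside INS-IGF2 on chromosome 11 from 2150190 to 2156879 and over RTL1 and MEG8 on chromosome 14 from 100900835 to 100906778. They held 0 and 3 H3K27ac rows.

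BDNF and USB1 were the genes that overlapped 2 dense chains each, and they are named here after their values were seen. BDNF encodes brain-derived neurotrophic factor, a growth factor of neurons whose transcription begins at several alternative promoters. The lower chain lay on chromosome 11 from 27695016 to 27706270, with signal values of 81.6, 189, 22.01, 107 and 128. Its 3 H3K27ac rows were weak, at 4.38, 3.14 and 4.61 fold. The member with the signal value of 107 covers the listed start with the motif printed above. The upper chain began 11.1 kb further on, from 27717356 to 27723667, with signal values of 122, 25.3, 58.6 and 36.5. It held 2 H3K27ac rows. The stronger, of 49.4 fold and 2782 bp, overlapped 3 of its 4 members, and the weaker was of 3.37 fold. The median CTCF signal was 107 in the lower chain and 47.6 in the upper, and the strongest H3K27ac row stood in the upper chain. The USB1 chains, on chromosome 16 from 57994827 to 58005643 and from 58018663 to 58027115, held 2 and 3 H3K27ac rows of at most 14.7 and 12.4 fold. USB1 encodes an exonuclease that trims U6 RNA.

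Apart from MIR124-3, 10 of the 1558 microRNA hairpins listed in the RefSeq table lay in dense chains, beside 250 of 19974 protein-coding genes (1.25%). They were MIR137, MIR760, MIR4757, MIR1244-1, MIR6853, MIR4683, MIR130A, MIR6782, MIR3188 and MIR4761. Whether the chains favour neuronal microRNAs was not tested. Among these 10 was MIR137, a neuronal microRNA, whose chain on chromosome 1 from 98045815 to 98054520 also contains the printed promoter of LOC124900404. The mature sequence is shown with its seed, bases 2 to 8, in capitals.

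hsa-miR-137-3p: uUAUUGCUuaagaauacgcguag

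The MIR137 chain had signal values of 19.7, 15.1, 217 and 158. The first of these intervals overlaps the hairpin's position and an H3K27ac row of 6.06 fold. In all, the chain held 5 H3K27ac rows of at most 7.55 fold, and 3 of 4 members overlapped them.

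Of the 21 chains in which all members overlapped H3K27ac, 5 more are described here, chosen after their values were seen. POU3F2, a neural POU-domain transcription factor, had 5 intervals with signal values of 36.0 to 159 and H3K27ac over 86.7% of the span. ZFHX3 had the highest coverage of any chain, 95.96%, with signal values of 23.04 to 70.7. SOX4, an SRY-related transcription factor, had signal values of 46.5, 305, 43.5 and 52.0. VEGFA, an angiogenic growth factor, had 5 intervals with signal values of 18.05 to 373. PCDH10, a protocadherin outside the clustered families, had 4 intervals with signal values of 132 to 239 and 7 rows.

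MAPT carried no dense chain. The nearest lay 1684 kb away on the lower-coordinate side, over ATXN7L3 and UBTF on chromosome 17 from 44198184 to 44210782. UBTF encodes a transcription factor of ribosomal RNA genes. The chain had signal values of 47.9, 158, 26.3 and 219 and 3 H3K27ac rows of at most 16.8 fold. MAPT overlapped 4 CTCF intervals. Those with signal values of 245 and 67.0 belonged to a chain of 3, below the number the rule requires, and those with 88.2 and 206 had no neighbour within the gap.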

How the data were processed

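The authors deposited 1 peak list per antibody, each for both libraries together, with 10 columns and 0 columns of per-sample values. Per the submitters' processing notes the build was hg38 and cutadapt 1.16 was used. The aligner, the peak caller and its settings are not given in the sources used here. The deposited CTCF signal value has no stated scale. The deposited H3K27ac value was read as a ratio, a fold enrichment at the summit, from its values and layout, and its deposited −log10 q was used as a filter. Depth is unknown.

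Rows on chromosomes 1 to 22 and X were used (43644 CTCF, 78639 H3K27ac). A merged interval took the signal and summit of its strongest row. Genes, promoters and microRNAs came from RefSeq tables of GRCh38.p14. Python 3.11.15, pandas 2.3.3 and scipy 1.17.1 were used, and merging, linking and overlap were tested on simulated intervals. Shares have 95% Wilson intervals, and no hypothesis test was run, since the lists hold no replicates.

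Members, lists and alternatives were chosen with earlier results of these data known. Named chains are those with the most intervals (5), the highest and lowest median signal (3 each), the most H3K27ac rows (5), the highest fold enrichment (3), the most intervals without H3K27ac (3), the chain nearest MAPT and chains on listed genes, with ties by the longer span. The motif was planned for all members, and promoter windows replaced the genome sequence.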

Additional observations from a re-analysis of the deposited data

How the results depend on the processing

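The number of dense chains (212) followed the rule closely: it was 36 with a gap of 2 kb, 648 with 10 kb, 69 without rows of 800 bp, 22 in the strongest 50% of CTCF rows, 51 with at least 5 intervals and 210 without the ESPN and ESPNP chains. The share of members on H3K27ac (42.6%) was 60.3%, 35.9%, 38.9% and 46.1% in the first 4 of these settings. It was 27.5% with at least 50% of the interval covered, 35.7% within 100 bp of the summit and 26.6% over 10 kb from a listed start. The share of chains holding H3K27ac (78.3%) was 94.4% with a gap of 2 kb and 67.0% in the strongest 50% of H3K27ac rows. The share on a protein-coding gene (85.8%) was 94.4% with a gap of 2 kb and 95.3% with all genes of the table. The ratio of median fold enrichment (1.21) was 1.35 with a gap of 2 kb, 1.115 with 10 kb, 1.04 between the quartiles of width and 1.21 with q under 0.01. It reversed to 0.692 against rows on other CTCF intervals, where only the rows in chains include some that touch no CTCF interval. With the third base of the motif free, 18.5% of member promoters held it. Of 31 alternatives, 9 (the 210 chains among them) kept the number of chains within 1.5 times or a share within its Wilson interval. A ratio counted as moved at any change, however small. The cause of the moves was not tested. The ESPN, start distance and third-base alternatives were added after seeing the data. No paired analysis was possible because each list covers both libraries together, and leaving out a library or searching whole intervals for the motif was not run. Replicate spread and read depth are unknown, so no value here has an experimental error.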
